A study of Mus musculus with 5 samples.

Results

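Transcripts of the translation initiation machinery were followed in the lenses of 14-day-old (P14) mice with and without conditional deletion of Yap1, the gene of a co-activator controlled by Hippo signalling. The genes were chosen by their symbols: every gene named Eif followed by a digit, without the X- and Y-linked pair Eif2s3x and Eif2s3y, was kept if it had at least 10 counts in 2 or more libraries. Of 22183 genes in the table, 71 carried such a symbol and 51 passed the count minimum. These 51 genes, which encode initiation factors, their inhibitors and the kinases that act on them, all entered the test. Eif5b had already been singled out as abundant and lower in the knockout when the group was drawn up, so its change is a description here and carries no test. Of the 20 genes left out, 19 had no count in any library (16 Eif1ad paralogs from Eif1ad2 to Eif1ad19, Eif4a3l1, Eif4a3l2 and Eif4e1b), and Eif4ebp3 had at most 3.76 counts. Just inside the minimum lay Eif2ak2, with a highest count of 38, and Eif4ebp2, with 69.

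Poly(A) RNA was sequenced from 2 knockout (cKO) and 3 control (Ctrl) libraries, and each library was a pool of 4 to 6 lenses. Lenses of the cKO group were from animals with Cre and Yap1 f/f or f/+ alleles, taken for their severe eye phenotype, with microphthalmia and closure of the pupillary membrane, so both floxed states may be mixed in a pool. The Ctrl pools came from littermates carrying f/f or f/+ alleles and no abnormality, which the genotype field lists as WT. No source used here names the Cre driver. Each n below counts such pools. In tissue RNA of this kind, fewer cells of a type and less RNA per cell cannot be told apart.

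Initiation begins when eIF1, eIF1A, eIF3 and eIF5 join the small ribosomal subunit and eIF2 brings in the initiator methionyl-tRNA. The eIF4 factors bind the mRNA cap and unwind the leader, the start codon is selected, and eIF5B joins the large subunit. Phosphorylation of eIF2 by 4 stress kinases blocks its recycling by eIF2B, and binding proteins (4E-BPs) hold eIF4E away from the cap complex until mTORC1 phosphorylates them. Lens fibre cells make crystallin in very large amounts before they lose their nuclei and ribosomes.

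The libraries held 22047553 to 25762805 expected counts. The Ctrl libraries detected 13972 to 14199 genes with at least 1 count, and the cKO libraries detected 12602 and 12028. Yap1 itself stood at 3.76 and 2.27 CPM (counts scaled to library size, with TMM factors) in cKO and at 7.19, 6.49 and 5.49 CPM in Ctrl, and its log2 change of -1.08 missed the threshold (edgeR adjusted p = 0.0759). The tissue label held, with 11 lens fibre markers summing to 359570 to 448830 CPM in every library. Most of that sum was crystallin, with Cryaa at 130230 to 167740 CPM and Cryba1 at 101570 to 151010 CPM. Of the 11, Bfsp1 fell in cKO (log2 change -1.34, edgeR adjusted p = 0.0227) and none rose. Both cKO pools lay below all Ctrl pools for 3 fibre markers and above them for 1. Over all genes tested, the shares were 28.7% below and 22.8% above. Of 5 lens epithelial markers, Cdh1, Pax6 and Gja1 fell in cKO. Of 8 macrophage markers tested, 7 rose, and the list summed to 105 and 31.0 CPM in cKO, with 1.56 to 2.88 CPM in Ctrl. The Y-linked genes Eif2s3y and Ddx3y had no count in either cKO library and 558 to 854 counts in each Ctrl library, so sex and genotype cannot be told apart.

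Most of the 51 genes changed little, and the largest change was that of Eif5b, which was known when the group was drawn up. At an adjusted p under 0.05 (edgeR's quasi-likelihood test, Benjamini-Hochberg over all 11724 genes tested), 2 of the 50 members other than Eif5b rose in cKO, Eif4ebp1 and Eif1ax, and none fell. Among all genes tested, edgeR called 5.76% higher and 7.73% lower at this threshold. At an unadjusted p under 0.05, 5 of these 50 members were higher and 3 lower in edgeR, as were 1737 and 2043 of all 11724 genes tested. DESeq2 called 5 of the 50 higher (Eif1, Eif1ax, Eif1b, Eif4ebp1 and Eif5a) and 3 lower (Eif2ak4, Eif2b3 and Eif4g2). Over all genes, DESeq2 called 1185 higher and 1542 lower. Both cKO libraries lay above all Ctrl libraries for 11 members and below them for 6, Eif5b included, while the groups overlapped for 34. The same separation held for 22.8% of all genes tested above and 28.7% below. The median log2 fold change was 0.07 over the members and -0.06 over all genes tested. The change was under 0.5 in size (log2) for 39 members, or 76.5%, against 47.3% of all genes tested. For 39 members the 95% interval of the change lay within 2-fold in either direction. It reached 2-fold for Eif1, Eif1a, Eif2a, Eif2ak2, Eif2ak3, Eif2ak4, Eif2b3, Eif4ebp1, Eif4ebp2, Eif4g3, Eif5a2 and Eif5b. With library totals alone in place of TMM factors, the median over all genes moved up by 0.219 (log2), and 5 members were called higher instead of 2. When any 1 Ctrl library was left out, no member was called. Over all genes, the calls then fell from 1581 to 65, 21 and 82.

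**Figure D1:**
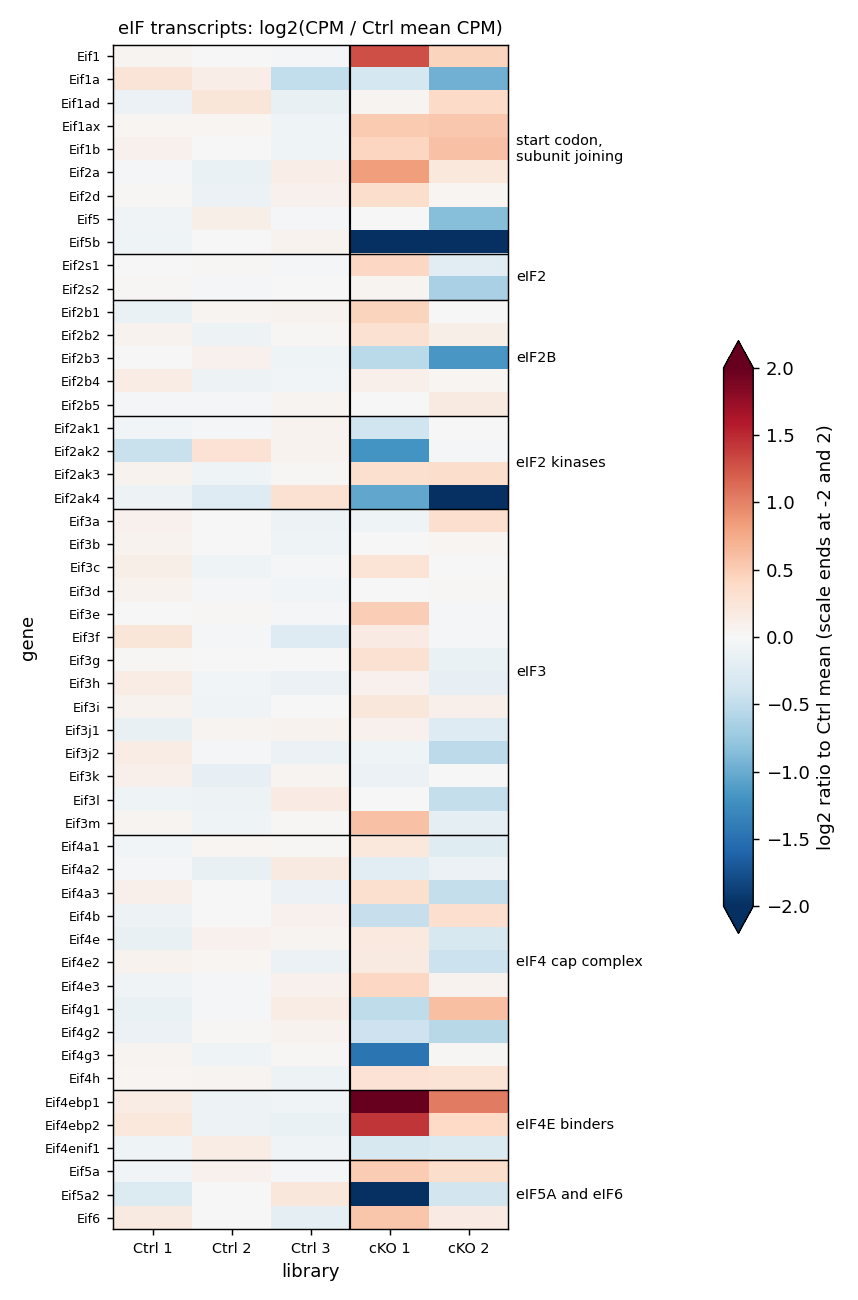
Level of each of the 51 transcripts in each library, as the log2 ratio of its CPM to the Ctrl mean; rows are genes grouped by role, columns are the 3 Ctrl and 2 cKO libraries, and the colour scale ends at -2 and 2. Eif5b lies at the low end of the scale in both cKO columns, Eif4ebp1 is high in both, and the 14 eIF3 rows stay pale. Eif5a2 also reaches the low end in the first cKO column and Eif2ak4 in the second.

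The start codon and subunit joining group held 9 members. Eif5b (ENSMUSG00000026083) encodes the GTPase that brings the large ribosomal subunit to the start codon. It stood at 1767, 1868 and 1968 CPM in Ctrl and at 337 and 109 CPM in cKO. Every cKO value was far below the Ctrl range, and the cKO pools differed from each other by more than the Ctrl pools did. The log2 fold change was -3.07 ± 0.49 (SE), or 8.37-fold lower. On the length-scaled FPKM measure it held 202, 223 and 255 in Ctrl and 43.6 and 16.5 in cKO. In each Ctrl library Eif5b ranked second among the 51 members by FPKM, behind Eif5a, and it ranked 14 and 25 in the cKO libraries. By counts it was gene number 28, 26 and 25 of the whole table in Ctrl, and number 112 and 424 in cKO. It took 33.7 to 35.9% of all counts of the members in Ctrl and 7.48 and 3.24% in cKO.

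The neighbours of Eif5b were read for their own values. In the GRCm38 gene annotation, Txndc9 starts beside Eif5b and runs the other way, and Rev1 overlaps its 3' end on the opposite strand. Txndc9 differed by 0.19 (log2; edgeR adjusted p = 0.698) with overlapping groups. Rev1 stood at 2.53 and 3.61 CPM in cKO and at 5.98, 6.49 and 6.10 CPM in Ctrl, a log2 change of -1.01 (edgeR adjusted p = 0.0630). No source used here says whether counting used the strand, so reads from Eif5b and Rev1 may not be told apart where they overlap.

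The promoter windows of Eif5b and Eif1ax are shown because the results turn on these genes. They come from the RefSeq promoter table, which matched 41 of the 51 genes. It held no entry for Eif1a, Eif2b3, Eif3e, Eif3h, Eif3i, Eif3j2, Eif4e3, Eif4ebp1, Eif4g2 and Eif6. The promoters of these genes, the called member Eif4ebp1 included, were therefore not searched. The runs are the 100 bases before the annotated start on GRCm38.p6, which is not the GRCm39 build named for the expression table. None of the motifs searched fell in either window, so neither holds capitals.
Eif5b, chr1:37997910-37998009, plus strand: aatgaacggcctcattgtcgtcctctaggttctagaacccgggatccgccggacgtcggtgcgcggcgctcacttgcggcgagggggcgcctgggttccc
Eif1ax, chrX:159372078-159372177, plus strand: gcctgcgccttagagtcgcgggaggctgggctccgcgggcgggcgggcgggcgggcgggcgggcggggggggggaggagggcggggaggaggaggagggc
The TEAD core GGAATG, the element bound by the DNA-binding partners of YAP1, was searched on both strands of the 250 bases before each start. It occurred for 4 of 41 members (Eif2ak3, Eif2b5, Eif3b and Eif3f), or 9.76%, and for 14.4% of 27025 genes in the table. The C/EBP-ATF element TGATGNAA, also searched on both strands, occurred for 0 of 41 members and 3.91% of all genes. A start of C followed by at least 4 pyrimidines, the form known from mTOR-sensitive mRNAs, occurred for 1 member, Eif3f, or 2.44%, and for 3.01% of all genes.

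Eif1ax (ENSMUSG00000067194) encodes the X-linked form of eIF1A, which promotes scanning. It stood at 87.8 and 88.8 CPM in cKO and at 63.0, 62.9 and 57.4 CPM in Ctrl. The groups did not overlap and the cKO pools were nearly equal. The log2 fold change was 0.53 ± 0.13 (SE), with an edgeR adjusted p of 0.0436, which became 0.0518 without the filter on low counts. Eif2s3x, the X-linked gene kept out of the group, stood at 44.3 and 44.1 CPM in cKO and at 27.8 to 31.1 CPM in Ctrl (log2 change 0.57, edgeR adjusted p = 0.0404). As only the Ctrl pools held Y-linked RNA, a difference of sex in these X-linked genes cannot be told apart from one of genotype. The autosomal paralog Eif1a stood at 25.4 and 16.8 CPM in cKO and at 38.8, 35.5 and 23.2 CPM in Ctrl, with overlapping groups (edgeR adjusted p = 0.195). From FPKM, Eif1a made up 34.5 ± 5.93% of the Eif1a and Eif1ax sum in cKO (SD, n = 2) and 53.4 ± 5.66% in Ctrl (SD, n = 3). The exact two-sided permutation test over libraries gave p = 0.1, the smallest that 2 against 3 allows.

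Eif1 encodes the factor that guards start codon accuracy. It stood at 485 and 271 CPM in cKO and at 206, 198 and 194 CPM in Ctrl, with no overlap and a log2 change of 0.92 ± 0.25 (SE; edgeR adjusted p = 0.0571). Its paralog Eif1b stood at 35.9 and 39.9 CPM in cKO and at 28.3, 26.3 and 25.1 CPM in Ctrl, also without overlap (log2 change 0.51, edgeR adjusted p = 0.0605). Neither passed the threshold, and both passed it in DESeq2 and with library totals. Eif5, the GTPase activator of eIF2, stood at 378 and 211 CPM in cKO and at 359, 410 and 367 CPM in Ctrl, and 1 cKO pool lay inside the Ctrl range. The remaining members of the group, Eif1ad, Eif2a and Eif2d, had log2 changes of 0.22, 0.56 and 0.20, and none passed.

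**Figure D2:**
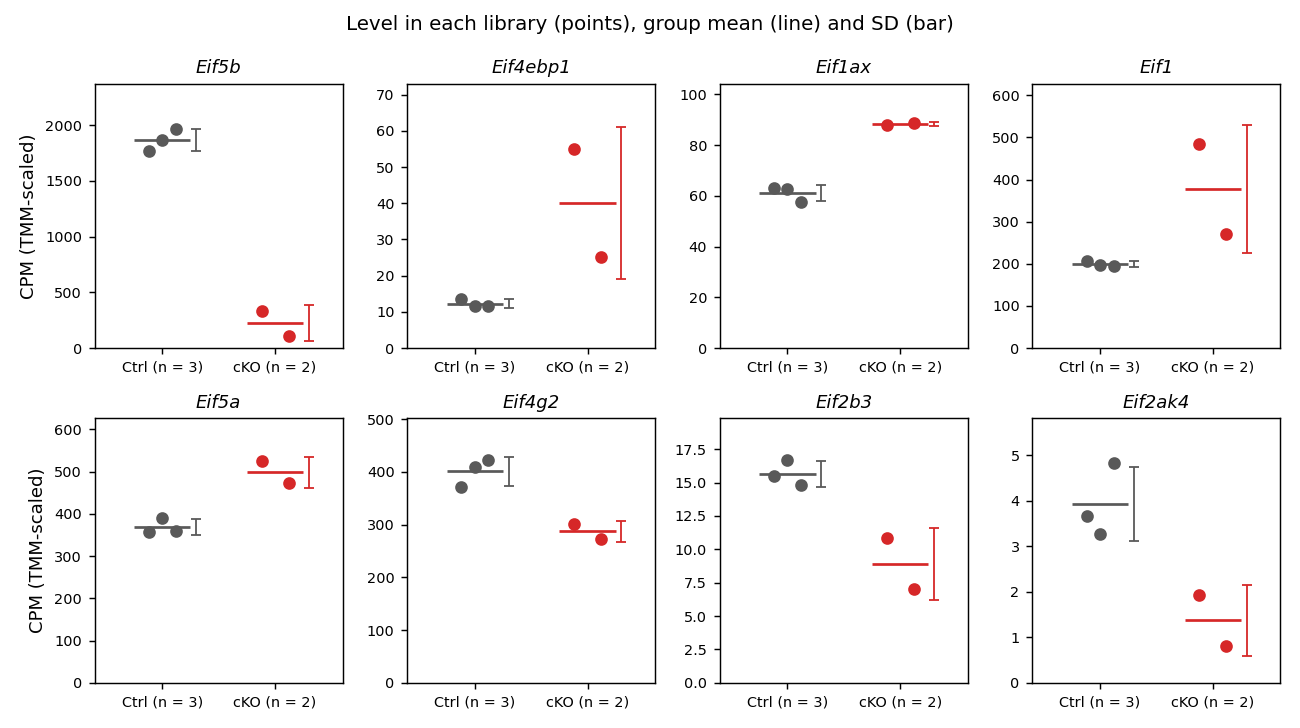
CPM of 8 transcripts in each library; points are libraries (3 Ctrl, grey; 2 cKO, red), lines are group means and bars are SD, and each panel has its own axis from 0 (the called members and 5 genes chosen after their values were seen). The groups do not overlap in any of the 8 panels, and the cKO pools of Eif5b, Eif4ebp1 and Eif1 lie well apart from each other.

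The core of eIF2 showed no called change. Eif2s2, the beta subunit, stood at 172 and 105 CPM in cKO and at 168, 161 and 166 CPM in Ctrl. Eif2s1, the alpha subunit that the stress kinases phosphorylate, stood at 184 and 118 CPM in cKO and at 138, 140 and 135 CPM in Ctrl. For both genes the cKO pools fell on either side of a narrow Ctrl range. Among the 5 subunits of eIF2B, the exchange factor that reloads eIF2 with GTP, none passed the threshold. Eif2b5, the catalytic subunit, stood at 36.8 and 41.2 CPM in cKO and at 36.0, 35.5 and 37.7 CPM in Ctrl. Eif2b3 stood at 10.8 and 7.002 CPM in cKO and at 15.5, 16.7 and 14.8 CPM in Ctrl, below all Ctrl pools (log2 change -0.81 ± 0.24, SE; edgeR adjusted p = 0.0694). The other subunits, Eif2b1, Eif2b2 and Eif2b4, had log2 changes of 0.25, 0.21 and 0.07.

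The 4 eIF2 kinases were among the least abundant members, at a Ctrl mean of 0.307 to 3.53 FPKM, and none was called. Eif2ak1, the haem-regulated kinase HRI, stood at 12.2 and 16.1 CPM in cKO and at 15.6, 16.0 and 16.9 CPM in Ctrl. Eif2ak4, the amino acid-sensing kinase GCN2, stood at 1.92 and 0.819 CPM in cKO and at 3.67, 3.27 and 4.84 CPM in Ctrl. Its groups did not overlap (log2 change -1.52 ± 0.48, SE; edgeR adjusted p = 0.0850), from 47 and 22 counts in cKO. Eif2ak3, the endoplasmic reticulum kinase PERK, had a log2 change of 0.34, and Eif2ak2, the double-stranded RNA kinase PKR, had -0.48, and at these levels the 95% intervals ran from -0.44 to 1.11 and from -1.94 to 0.97.

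The 14 eIF3 members, which form the scaffold on the small subunit, kept close to their Ctrl levels. None was called, the log2 changes ran from -0.29 (Eif3j2) to 0.26 (Eif3e), and edgeR adjusted p ranged from 0.354 to 0.993. The 95% interval of every eIF3 member lay within 2-fold in either direction. Eif3i, the highest per length, stood at 83.0 and 75.5 CPM in cKO and at 73.9, 67.7 and 70.5 CPM in Ctrl, and it was the only eIF3 member without overlap. Eif3k stood at 41.7 and 45.9 CPM in cKO and at 48.5, 40.7 and 47.0 CPM in Ctrl. Ctrl means ran from 6.12 FPKM (Eif3a) to 60.0 FPKM (Eif3i). The other members, Eif3b, Eif3c, Eif3d, Eif3f, Eif3g, Eif3h, Eif3j1, Eif3l and Eif3m, lay within those limits of change, and their groups overlapped. The summed level of the complex was 815 and 693 CPM in cKO and 752, 702 and 712 CPM in Ctrl.

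**Figure D3:**
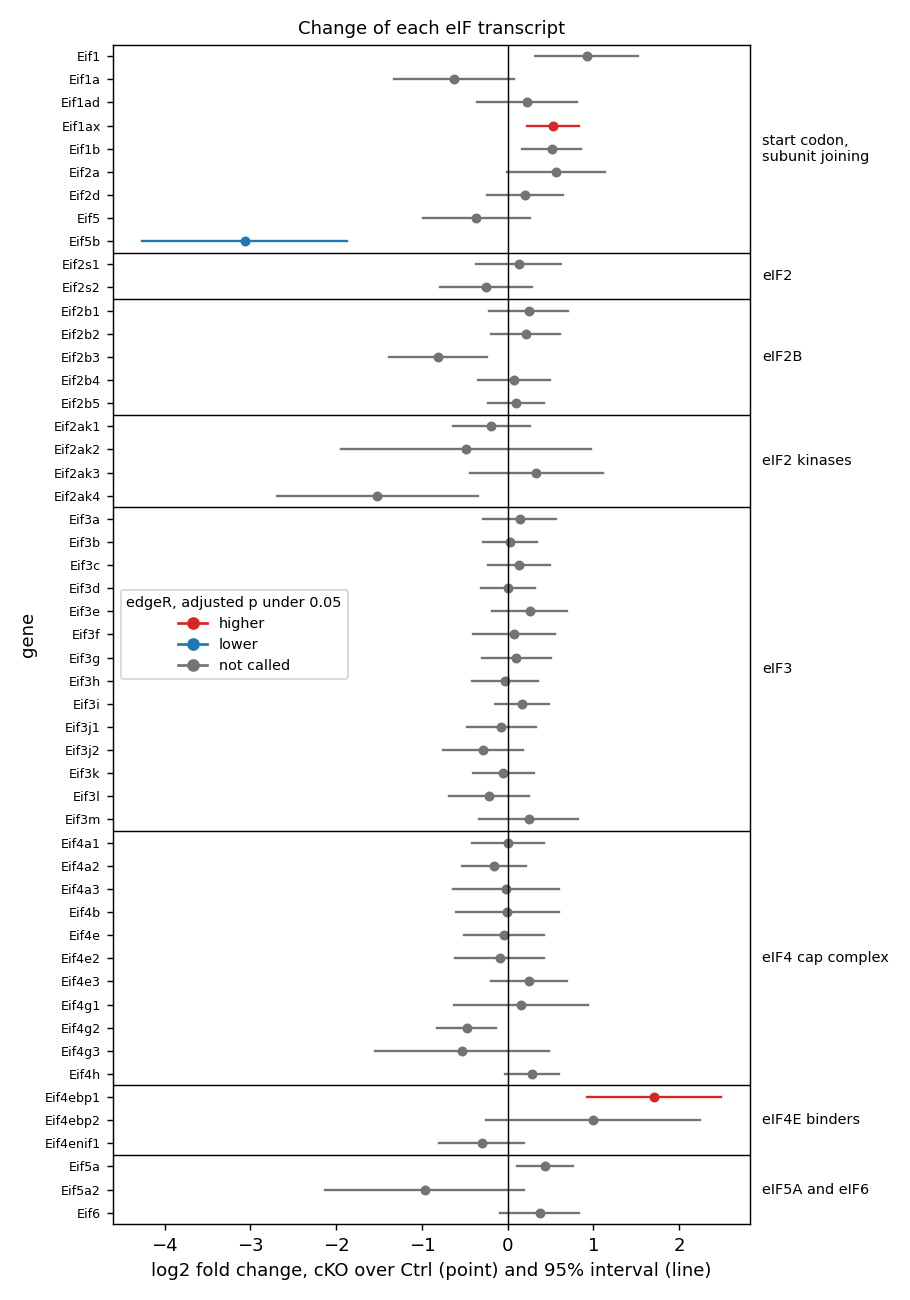
Log2 fold change of each member, cKO over Ctrl (point), with its 95% interval (line), grouped by role; colours mark the edgeR call. The eIF3 points lie between -0.29 and 0.26, while Eif5b at -3.07 and Eif4ebp1 at 1.70 lie outside the range of all other members.

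No cap complex member was called among 11. Eif4a3 was counted with them, though its deposited annotation holds neither translation initiation factor activity nor translational initiation. Eif4a1, the main RNA helicase, stood at 428 and 313 CPM in cKO and at 356, 379 and 377 CPM in Ctrl, with a log2 change of 0.00 and a 95% interval from -0.42 to 0.42. Eif4e, the cap-binding protein, stood at 231 and 162 CPM in cKO and at 184, 215 and 210 CPM in Ctrl. For both, the cKO pools enclosed the Ctrl range. Eif4g2, a scaffold relative that lacks the eIF4E-binding region, stood at 302 and 273 CPM in cKO and at 371, 409 and 423 CPM in Ctrl, without overlap (log2 change -0.48 ± 0.14, SE; edgeR adjusted p = 0.0722). Its relatives Eif4g1 and Eif4g3 were higher in the second cKO pool than in the first, at 14.3 and 30.9 CPM for Eif4g1 and 4.13 and 11.6 CPM for Eif4g3. Their Ctrl values were 18.5 to 22.5 CPM and 10.7 to 11.8 CPM, so the cKO pools disagreed on the direction for Eif4g1. Eif4h, a helicase cofactor, lay above Ctrl in both cKO pools (83.9 and 82.8 CPM against 63.7 to 71.0 CPM; edgeR adjusted p = 0.184). Eif4a2, Eif4a3, Eif4b, Eif4e2 and Eif4e3 had log2 changes from -0.16 to 0.25.

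The balance between paralogs of the cap complex was compared from FPKM. Eif4a2 made up 10.8 ± 2.38% of Eif4a1 plus Eif4a2 in cKO (SD, n = 2) and 12.8 ± 1.06% in Ctrl (SD, n = 3; exact permutation p = 0.3). Eif4e made up 83.9 ± 0.901% of its family in cKO, while the Ctrl value was 84.6 ± 2.02% (exact permutation p = 0.7). Eif4g1 made up 3.93 and 9.69% of the Eif4g sum in the 2 cKO pools and 4.11 to 4.25% in Ctrl (exact permutation p = 0.4). In none of these families did the groups separate.

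Eif4ebp1 (ENSMUSG00000031490) encodes 4E-BP1, the mTORC1-controlled inhibitor of eIF4E and a known ATF4 target. It stood at 54.9 and 25.3 CPM in cKO and at 13.7, 11.5 and 11.7 CPM in Ctrl. Both cKO pools lay above all Ctrl pools, and the first was more than 2-fold above the second. The log2 fold change was 1.70 ± 0.32 (SE), or 3.26-fold, with an edgeR adjusted p of 0.0263. Summed macrophage markers were also higher in the first cKO pool than in the second (105 and 31.0 CPM), and their part in the result was not tested. Eif4ebp2 stood at 2.82 and 1.38 CPM in cKO and at 1.21, 0.976 and 0.960 CPM in Ctrl, and it did not pass (edgeR adjusted p = 0.237). From FPKM, Eif4ebp1 held 97.1 ± 0.112% of the sum with Eif4ebp2 in cKO (SD, n = 2) and 93.8 ± 0.675% in Ctrl (SD, n = 3; exact permutation p = 0.1, the smallest possible). Eif4enif1, which carries eIF4E into the nucleus, stood at 6.78 and 6.93 CPM in cKO and at 7.98, 9.32 and 8.06 CPM in Ctrl (edgeR adjusted p = 0.360).

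Eif5a, whose product helps ribosomes past difficult peptide bonds, was the most abundant member per length in each Ctrl library. It stood at 524 and 473 CPM in cKO and at 356, 391 and 359 CPM in Ctrl, without overlap (log2 change 0.44 ± 0.14, SE; edgeR adjusted p = 0.0815). Eif6, which keeps free large subunits from joining early, stood at 35.0 and 26.7 CPM in cKO and at 27.0, 23.7 and 20.8 CPM in Ctrl, with overlap. Eif5a2, the rarer eIF5A paralog, stood at 3.92 and 12.6 CPM in cKO and at 13.4, 16.2 and 19.0 CPM in Ctrl. Both cKO pools were below Ctrl, and the first was well below the second (edgeR adjusted p = 0.220).

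**Figure D4:**
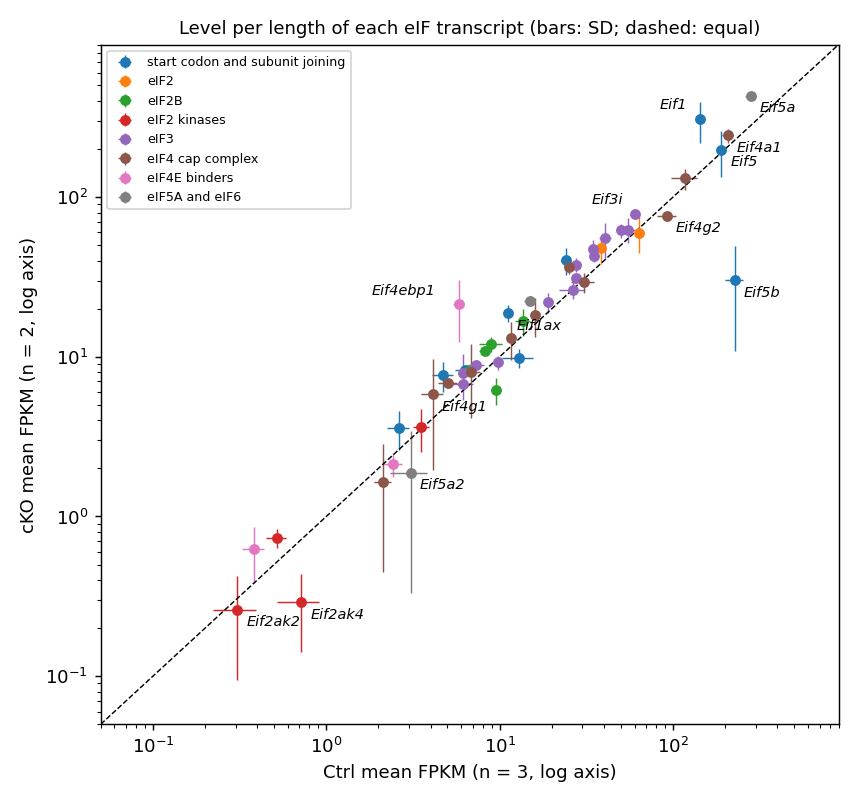
Mean FPKM of each member in cKO (n = 2) against Ctrl (n = 3), both on log axes, coloured by role; bars are SD and the dashed line marks equal levels. Eif5b lies far below the line, Eif4ebp1 lies above it, and most members follow it from the rare kinases up to Eif5a.

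Summed over all 51 members, the level was 4514 and 3355 CPM in cKO and 5241, 5446 and 5479 CPM in Ctrl. This gap follows from Eif5b, which was already known to be abundant and lower, and is no test of the group. Without Eif5b the sums were 4176 and 3247 CPM in cKO and 3474, 3579 and 3510 CPM in Ctrl, and the cKO pools fell on either side of Ctrl. The 2 cKO pools differed by more than 1.5-fold (after adding 0.5 CPM) for 19 of 51 members, or 37.3%, against 43.7% of all genes tested. The first pool was the higher for 14 of these, and the second for Eif5a2, Eif4g3, Eif4g1, Eif4b and Eif2ak2. The 3 Ctrl pools spanned more than 1.5-fold for 1 member, Eif1a, against 22.03% of all genes tested.

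Genes that work with the initiation factors were read from lists in the same edgeR fit. These lists were drawn up with results of these data known, and their counts stand beside the 5.76% and 7.73% of all genes tested. Of 10 elongation genes tested, Eef2, the translocation GTPase, rose and none fell. Eef2 stood at 128 and 152 CPM in cKO, with 89.4, 83.6 and 81.0 CPM in Ctrl (log2 change 0.72, edgeR adjusted p = 0.0280). Eef1a1, which delivers aminoacyl-tRNA, stood at 560 and 540.03 CPM in cKO and at 459, 408 and 397 CPM in Ctrl (edgeR adjusted p = 0.115). Eef1g, of its exchange complex, had a log2 change of -0.35 (edgeR adjusted p = 0.143). Of 8 termination and recycling genes, Hbs1l, a ribosome rescue GTPase, fell and none rose. Its CPM was 78.2 and 69.2 in cKO and 118, 137 and 121 in Ctrl, without overlap (log2 change -0.77, edgeR adjusted p = 0.0270). Etf1, the release factor, was the most abundant of that list, with 180 and 137 CPM in cKO and 110, 103 and 101 CPM in Ctrl (edgeR adjusted p = 0.0572).

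Of 19 cap and poly(A) partners, 1 rose and 2 fell. Mknk2, an eIF4E kinase, rose from 9.74, 11.1 and 13.4 CPM in Ctrl to 22.1 and 24.9 CPM in cKO (log2 change 1.04, edgeR adjusted p = 0.0254). Ncbp2, of the nuclear cap-binding complex, fell from 11.1, 10.1 and 13.4 CPM to 5.84 and 6.29 CPM (log2 change -0.93, edgeR adjusted p = 0.0428). Dhx29, a helicase that aids scanning, fell from 18.3, 16.4 and 17.0 CPM to 8.45 and 11.2 CPM (log2 change -0.81, edgeR adjusted p = 0.0449). The groups did not overlap for any of these 3 genes. The most abundant genes of the list, Bzw1 and Paip2, had log2 changes of -0.04 and 0.04.

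Of 18 mTORC1 genes, 2 rose and 2 fell. Mtor, the kinase itself, stood at 5.43 and 7.37 CPM in cKO and at 17.1, 20.8 and 25.9 CPM in Ctrl, without overlap (log2 change -1.73, edgeR adjusted p = 0.0161). Tsc2, which restrains mTORC1, stood at 41.7 and 37.1 CPM in cKO and at 60.7, 73.1 and 72.9 CPM in Ctrl (log2 change -0.81, edgeR adjusted p = 0.0277). Rheb, which activates mTORC1, stood at 111 and 71.5 CPM in cKO and at 50.2, 45.8 and 47.0 CPM in Ctrl (log2 change 0.93, edgeR adjusted p = 0.0356). For these 3 genes the groups did not overlap. Lamtor2 rose by 0.55 on the log2 scale, and Rragc, abundant in the list, had a log2 change of -0.67 that did not pass (edgeR adjusted p = 0.0815).

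Of 11 genes that set eIF2 phosphorylation, Ppp1r15a, the stress-induced regulatory subunit that directs a phosphatase to eIF2, was the only call. It stood at 77.4 and 23.9 CPM in cKO and at 554, 599 and 594 CPM in Ctrl, with both cKO pools far below (log2 change -3.52, edgeR adjusted p = 0.0150). Ppp1ca, a catalytic subunit, had a log2 change of 0.27, with both cKO pools above all Ctrl pools (edgeR adjusted p = 0.248). Of 16 genes for ATF4 and its targets, Asns, Chac1, Ddit3, Psat1 and Trib3 rose and none fell. All 16 were higher in the first cKO pool than in the second. Their summed level was 4392 and 2291 CPM in cKO and 2348, 2133 and 2266 CPM in Ctrl, so the sum of the second cKO pool lay within the Ctrl range. Nupr1 made up most of each sum, which therefore says little about the other genes. Gene by gene, both cKO pools lay above all Ctrl pools for 8 of the 16 and below them for 2. Among all genes tested, 22.8% lay above and 28.7% below in this way. Asns, which makes asparagine, stood at 131 and 59.6 CPM in cKO and at 14.3, 14.8 and 13.98 CPM in Ctrl. Psat1, of serine synthesis, stood at 112 and 100.3 CPM in cKO and at 51.2, 51.7 and 58.4 CPM in Ctrl. Chac1, a glutathione-degrading enzyme, stood at 80.9 and 16.5 CPM in cKO and at 0.154 CPM or less in Ctrl. For these 3 genes both cKO pools were above Ctrl. Trib3 stood at 90.1 and 3.54 CPM in cKO with 0.614 CPM or less in Ctrl, and Ddit3 at 72.1 and 9.91 CPM with 2.38 to 4.44 CPM in Ctrl, so most of their level came from the first pool. Atf4 itself stood at 141 CPM in the first cKO pool and at 40.4 CPM in the second, below the 53.7 to 62.3 CPM of Ctrl (edgeR adjusted p = 0.410). Nupr1, the most abundant gene of the list, stood at 3246 and 1717 CPM in cKO and at 1806, 1650 and 1743 CPM in Ctrl, with overlap (edgeR adjusted p = 0.240). Slc3a2 had a log2 change of 0.01.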

How the data were processed

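The authors deposited 1 table of expected counts and FPKM for 5 libraries. Per the submitters' processing notes, RSEM, Trimmomatic 0.18.0 and GRCm39 were used; the aligner and any use of strand were not given in the sources used here. Expected counts, as deposited, are estimates that can split reads between near-identical genes, and 8 members had fractional values. FPKM, as deposited by the authors, scales for gene length and library size. Expected counts were rounded, filtered with filterByExpr (minimum count 10, minimum total 15), scaled by TMM and tested in R 4.3.3 with edgeR 4.0.16 (quasi-likelihood), with Benjamini-Hochberg adjustment over 11724 genes and a threshold of 0.05. SE is the log2 fold change divided by the root of F. The fit was tested on simulated data. limma 3.58.1 and DESeq2 1.42.0 served as alternatives. Levels of different genes were compared per length, from FPKM.

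The library totals, 22047553 to 25762805, leave counting error small for all but the rarest members; 3 residual degrees of freedom limit the tests. The labels do not say that the pools came from separate litters, so p-values measure the spread between these pools. Members and lists were chosen with earlier results of these data known. Values in every library are given for called members, Eif5b and the 2 members with the highest Ctrl FPKM in each role. From each other list, the text names the 2 most abundant genes and up to 3 called genes with the smallest adjusted p; all further genes with values were chosen after these were seen.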

Additional observations from a re-analysis of the deposited data

How the results depend on the processing

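The calls of members depended on the fit; each count of lower members includes Eif5b unless it is 0, and its place there is no test, since its change was known when the group was drawn up. DESeq2 called 5 members higher and 4 lower, against 1185 and 1542 of all genes. Library totals gave 5 and 1 (1234 and 717 of all genes), and no filter on low counts 2 and 1 (624 and 803). With limma, log2(FPKM + 1) gave 7 and 1 (1380 and 743), and log2(FPKM + 0.1) gave 7 and 1 (1402 and 835). With a replicate block, 0 were higher and 1 lower, none besides Eif5b, Eif1ax had an adjusted p of 0.307 and Eif4ebp1 of 0.0831, and the number of called genes fell from 1581 to 175. The labels do not say whether the shared numbers pair the pools. Same-numbered deviations correlated at 0.111 and -0.0834, and pools of unlike number at 0.0834 and -0.111. These values cannot settle the pairing, since the deviations of 2 cKO pools from their mean mirror each other. Leaving out 1 library at a time gave 0 to 11 members higher and 0 to 9 lower: without the first cKO pool 5 and 9, without the second 11 and 5, and without any Ctrl pool 0 and 0, where only 65, 21 and 82 genes of the whole table were called. A fit without a cKO pool kept 1 cKO library, so its spread came from the Ctrl pools alone. Calls then rose over the whole table too, so these member counts are no result for the group. The log2 change of Eif4ebp1 was 1.03 without the first cKO pool and 2.16 without the second. For Eif1ax it was 0.53 and 0.52. Each Ctrl pool left out gave an adjusted p of 0.102 to 0.131 for Eif4ebp1 and 0.130 to 0.171 for Eif1ax.

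The median log2 change over members was 0.288 with library totals, 0.233 and 0.289 with FPKM (pseudocounts 1 and 0.1), -0.00509 with the replicate block and -0.0204 to 0.124 with a library left out. The summed level differed by -831 CPM with library totals and by -2033 to -875 CPM with a library left out. The Eif4a2 share differed by -0.907 points from counts and -3.70 to -0.334 with a library left out, the Eif4g1 share by 2.45 and -0.263 to 5.50, and the Eif4e share by -1.85 to 0.0774.

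Sign changes concerned members that were not called in the main edgeR fit. The cause of these changes was not tested. Library totals gave Eif2ak1 0.0343, Eif3h 0.176, Eif3j1 0.122, Eif3k 0.169, Eif4a2 0.0557, Eif4a3 0.169, Eif4b 0.234, Eif4e 0.146 and Eif4e2 0.102. FPKM + 1 and FPKM + 0.1 gave Eif2ak1 0.00946 and 0.00635, Eif3h 0.171 and 0.176, Eif3j1 0.112 and 0.128, Eif3k 0.165 and 0.168, Eif4a3 0.133 and 0.141, Eif4b 0.147 and 0.156, Eif4e 0.165 and 0.166, Eif4e2 0.170 and 0.177, and Eif5 0.0128 and 0.0127. Eif4b was 0.00843 in DESeq2 and 0.00890 without a filter. The replicate block gave Eif3b -0.0122, Eif3d -0.0257, Eif3f -0.0360 and Eif4a1 -0.00509. With a library left out, values ran from -0.00955 to 0.453 for Eif2b1, -0.239 to 0.417 for Eif2s1, -0.665 to 0.0628 for Eif2s2, -0.0907 to 0.326 for Eif3a, -0.0204 to 0.269 for Eif3c, -0.0117 to 0.0751 for Eif3d, -0.0414 to 0.494 for Eif3e, -0.0316 to 0.248 for Eif3f, -0.151 to 0.303 for Eif3g, -0.174 to 0.0822 for Eif3h, -0.266 to 0.0832 for Eif3j1, -0.126 to 0.0328 for Eif3k, -0.491 to 0.00734 for Eif3l, -0.211 to 0.585 for Eif3m, -0.256 to 0.209 for Eif4a1, -0.481 to 0.325 for Eif4a3, -0.458 to 0.322 for Eif4b, -0.337 to 0.188 for Eif4e, -0.442 to 0.182 for Eif4e2, -0.502 to 0.595 for Eif4g1 and -1.46 to 0.0145 for Eif4g3.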
